A study of Nothobranchius furzeri with 20 samples.

Results

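Livers of 5 turquoise killifish aged 7 weeks were compared with livers of 5 fish aged 5 weeks, and these 10 samples were chosen by the age label alone from a series of 20 samples. All fish were male Nothobranchius furzeri of the GRZ strain, no treatment is named in the labels, and age is the only labelled factor that separates the groups. The series also holds 5 fish each at 10 and 14 weeks, which shared the estimate of spread in the statistical fit and whose levels are given only where they show what became of a gene. RNA-seq reads were counted per gene from libraries made with the TruSeq RNA v2 kit, and a library held between 22529235 and 32050062 counts in 5-week fish and between 24566917 and 37122038 in 7-week fish. The labels name no litter, tank, date or sequencing batch, so the p-values reflect differences among these libraries, which may be partly technical.

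The turquoise killifish lives in seasonal pools that dry out, and it grows and matures quickly. GRZ is an inbred strain of this species known for its short life. The liver makes most plasma proteins, and the transcripts of a small number of secreted proteins take up a large part of hepatocyte messenger RNA, so a liver library is dominated by few genes. The identifiers of the deposited table are paired with no gene names, functions or positions in the sources used here, so the liver label could not be checked against marker genes, and genes are described by their levels and behaviour.

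Some 5-week livers stood apart from one another before any comparison between ages was made. As a measure of difference between 2 libraries, the percentage of counts that would have to be reassigned to other genes to turn the profile of the one into that of the other was used. Between 5-week fish 1 and 2 this was 14.8%, and between 5-week fish 3 and 4 it was 14.1%, but fish 1 and 2 differed from fish 3, 4 and 5 by 25.7% to 32.3%. Over the 10 pairs of 5-week fish the median was 25.9% (range 14.1% to 32.3%), while over the 10 pairs of 7-week fish it was 15.3% (range 9.13% to 21.6%). The 25 pairs made of a 5-week and a 7-week fish had a median of 23.4% (range 17.1% to 30.9%). Livers of different ages were therefore no farther apart on this measure than the 5-week livers were among themselves. The rank order of the genes gave a like picture, with median Spearman correlations across genes of 0.901 within 5 weeks, 0.961 within 7 weeks and 0.910 between the ages. At 7 weeks fish 3 was the most distant, at 19.9% to 21.6% from the other 7-week fish, which lay within 9.13% to 16.3% of each other. The numbers of called genes, the share of reads moved and the measures per fish are given below also without 5-week fish 1 and 2.

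**Figure D1:**
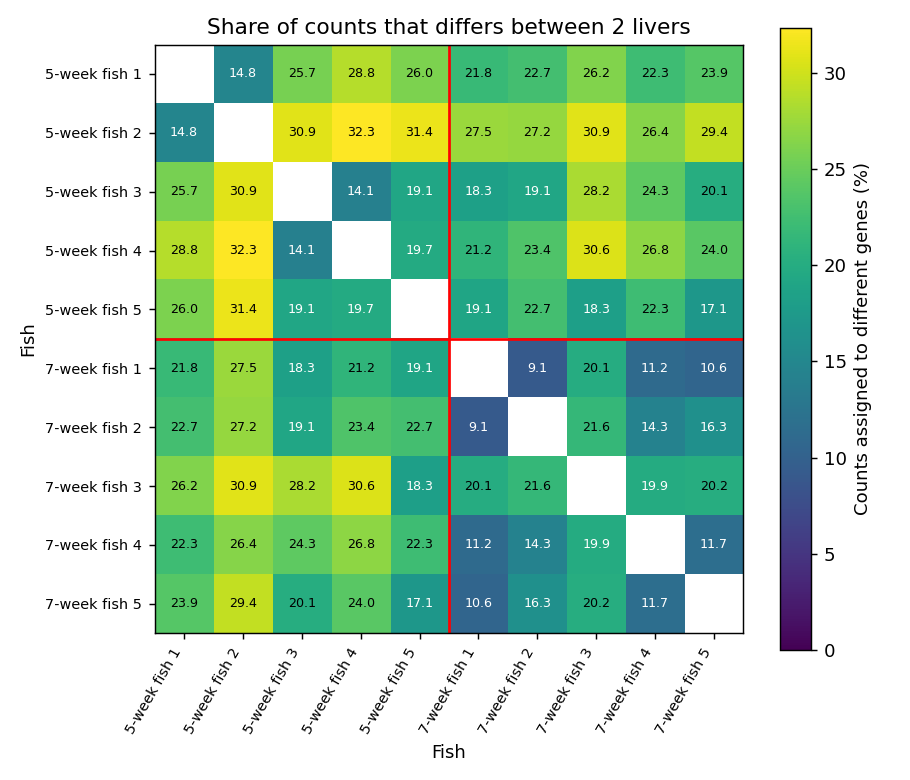
Percentage of counts that differs between each pair of the 10 livers (0 would be identical profiles), with red lines separating 5-week from 7-week fish. The 7-week block is the darkest, at 9.13% to 21.6%, and 5-week fish 1 and 2 form a close pair at 14.8% that is far from the other 5-week fish.

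The change from 5 to 7 weeks touched a large number of genes. Of 16475 genes with enough reads to be tested, 1591 rose and 1890 fell in edgeR's quasi-likelihood test at a Benjamini-Hochberg adjusted p under 0.05, which is 21.1% of the tested genes, 9.66% higher and 11.5% lower at 7 weeks. The median rise was 0.99 and the median fall -1.32 on the log2 scale, against a median SE of 0.29 for the called genes. The fit gave each gene a single spread for all ages. The SD of log2 levels was larger at 5 than at 7 weeks in 76.0% of tested genes (medians 0.54 and 0.34). A fit to the 10 libraries of these ages alone gave 1996 calls. The middle of the distribution was narrow, with 25% and 75% points of the absolute log2 change at 0.83 and 1.61. Large fitted falls outnumbered large fitted rises. A fitted change of at least 2-fold was found in 779 called genes that rose and 1315 that fell, and of at least 4-fold in 97 and 422. It was at least 8-fold in 27 and 135, and at least 16-fold in 4 and 30. Falls and rises were not compared at equal abundance. Below 1 CPM (counts relative to library size), 31 genes rose and 336 fell. The median absolute log2 change of called genes was 1.90 there and 0.90 from 10 to 100 CPM. It was 1.08 from 100 to 1000 CPM and 2.01 in the 8 called genes at 1000 CPM or more. The median SE of tested genes was 0.56 below 1 CPM and 0.24 from 10 to 100 CPM. In bulk tissue, fewer cells of a type and less RNA per cell cannot be told apart.

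Few of these genes could be said to have changed by more than 2-fold. When the same fit was tested against a 2-fold change instead of no change (edgeR's glmTreat, adjusted p under 0.05), 63 genes passed, 33 higher and 30 lower at 7 weeks (0.382% of the tested genes), although the fitted change was at least 2-fold in 779 rises and 1315 falls. This count depended on which fish were in the fit. Leaving out 5-week fish 1 and 2 together gave 422 genes, while leaving out fish 1 or fish 2 alone gave 78 or 80. Leaving out 5-week fish 3 or fish 4 gave 118 or 34. Omitting any one of 7-week fish 1, 2 or 4 gave 36 genes each, and a fit to the 10 livers of these ages gave 21. The number of all calls was steadier, at 2190 rises and 2186 falls without 5-week fish 1 and 2. Among the fits that left out 1 of the 20 libraries, it dropped most without 5-week fish 4, to 947 rises and 1210 falls, and without 7-week fish 2, to 1111 and 1098, and the falls alone dropped to 1151 without 7-week fish 1 and to 1077 without 7-week fish 4. Whether rises or falls were the more numerous depended on the method, with 1099 rises and 897 falls from the 10 libraries of these ages alone and 1796 and 1253 in limma-voom. The 10 libraries alone thus gave 1996 calls, and limma on the deposited RPKM gave 683, both fewer than any fit with 1 library left out. The deposited RPKM were not divided by each library's own total. In every fit that left out 1 of the 20 libraries, 856 of the 1591 rises (53.8%) and 782 of the 1890 falls (41.4%) were called again in the same direction. No gene called in the fit of all libraries was called in the opposite direction in any of these 20 fits or of the 10 other alternatives (0 genes).

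The direction of change went with abundance. Genes were classed by their mean CPM (counts relative to library size, scaled by TMM) over the 10 fish. Below 1 CPM, 31 of 2536 tested genes rose and 336 fell. From 1 to 10 CPM, 419 of 6818 rose and 1006 fell. From 10 to 100 CPM the balance turned, with 993 of 6170 genes higher and 525 lower at 7 weeks. From 100 to 1000 CPM, 140 of 796 genes rose and 23 fell. Among the 155 genes at 1000 CPM or more, 8 rose, with log2 changes between 0.94 and 4.86, and none passed the edgeR test as lower (0 genes). In this top class 3 genes were lower at an unadjusted p under 0.05, DESeq2 called 2 lower and limma-voom 0. The 2 upper classes depended on 5-week fish 1 and 2, without which 139 genes rose and 84 fell from 100 to 1000 CPM, and 7 rose and 8 fell at 1000 CPM or more. In the same fit, 45 rose and 255 fell below 1 CPM, 691 rose and 1008 fell from 1 to 10 CPM, and 1308 rose and 831 fell from 10 to 100 CPM. The called rises had a median abundance of 20.2 CPM (10% to 90% range 3.91 to 94.6), the called falls 3.95 CPM (0.638 to 28.9) and all tested genes 7.50 CPM.

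**Figure D2:**
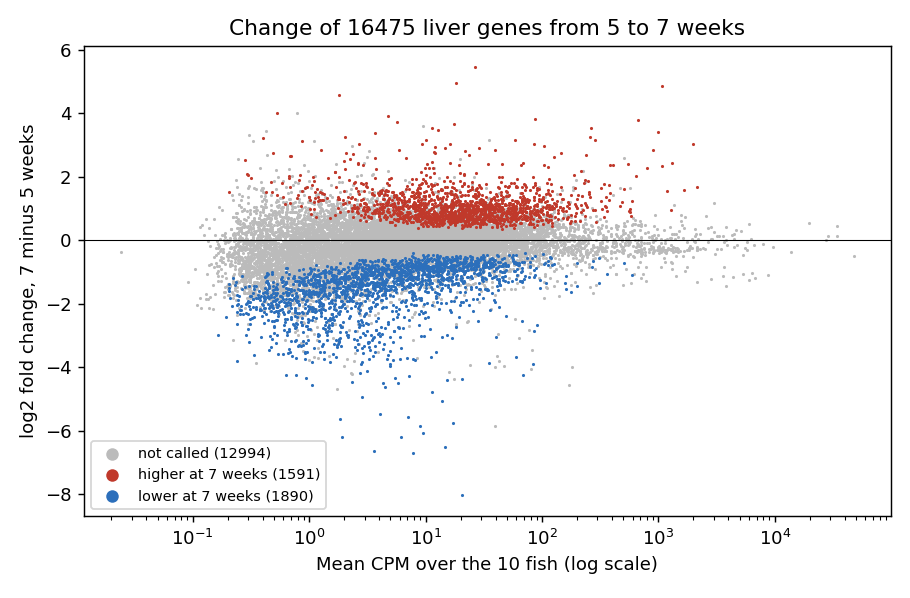
log2 fold change from 5 to 7 weeks (7 minus 5) against the mean CPM over the 10 fish on a log axis, 1 point per tested gene, with the 1591 called rises in red, the 1890 called falls in blue and other genes in grey. Falls dominate at the left, below 10 CPM, and rises dominate from 10 to 1000 CPM.

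Taken at 10 CPM, 25.1% of the 1792 calls below this level were rises (450 against 1342 falls), and 67.6% of the 1689 calls at or above it (1141 against 548). The imbalance was found in each fit run. The share of rises ran from 18.9% to 39.0% below 10 CPM and from 58.4% to 86.6% at or above it over the alternatives, including the fit without any library scaling. Without 5-week fish 1 and 2 it was 36.8% and 61.2%. This division was chosen after the data had been seen. Low genes were also measured less exactly, with a median SE of 0.56 below 1 CPM, 0.33 from 1 to 10 CPM and 0.24 from 10 to 100 CPM. The median log2 change did not differ in this way by the gene length implied by the deposited RPKM. It was between -0.08 and -0.10 in each of 4 length classes of equal size, beside -0.09 over all tested genes. This median compares the 2 ages and does not show whether single fish varied with gene length. From the shortest to the longest class, the share called lower went from 8.96% to 13.0% and that called higher from 8.79% to 10.3%. Median abundance went from 4.72 to 12.1 CPM over the same classes, and a part played by length was not tested.

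The shifts were carried unequally by the 5-week fish. Below 1 CPM, the median gene lay above its 7-week mean by 0.82 log2 units in 5-week fish 1, 0.67 in fish 2, 0.51 in fish 4 and 0.24 in fish 5, but it lay at -0.11 in fish 3. Between 10 and 100 CPM the median gene lay below its 7-week mean in fish 1, 2, 4 and 5, at -0.18, -0.17, -0.23 and -0.13, and fish 3 was at 0.01. From 100 to 1000 CPM, where 140 genes rose and 23 fell, it lay at -0.46 in fish 1 and -0.42 in fish 2, but at 0.16, -0.06 and 0.02 in fish 3, 4 and 5. These are differences of log2 CPM with a prior count of 2. They rest on the TMM scaling, whose factors were 1.23, 1.14, 0.848, 0.918 and 0.969 in 5-week fish 1 to 5. In 7-week fish 1 to 5 the factors were 0.968, 0.974, 1.06, 1.05 and 0.985. Another scaling would shift all classes of a fish together, up or down, so the sign of a small offset depends on it. These offsets were not computed under another scaling. Among the most abundant genes, at 1000 CPM or more, fish 1 and 2 lay at -0.42 and -0.36 and fish 3, 4 and 5 at 0.52, 0.50 and 0.23, so the 5-week fish did not share a direction there. The median difference of 7 minus 5 weeks between 100 and 1000 CPM was 0.16 with all fish and turned to -0.09 without 5-week fish 1 and 2. Without these fish it went from -0.47 to -0.25 below 1 CPM, from -0.16 to -0.07 from 1 to 10 CPM, from 0.13 to 0.11 from 10 to 100 CPM and from -0.17 to -0.44 at 1000 CPM or more.

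**Figure D3:**
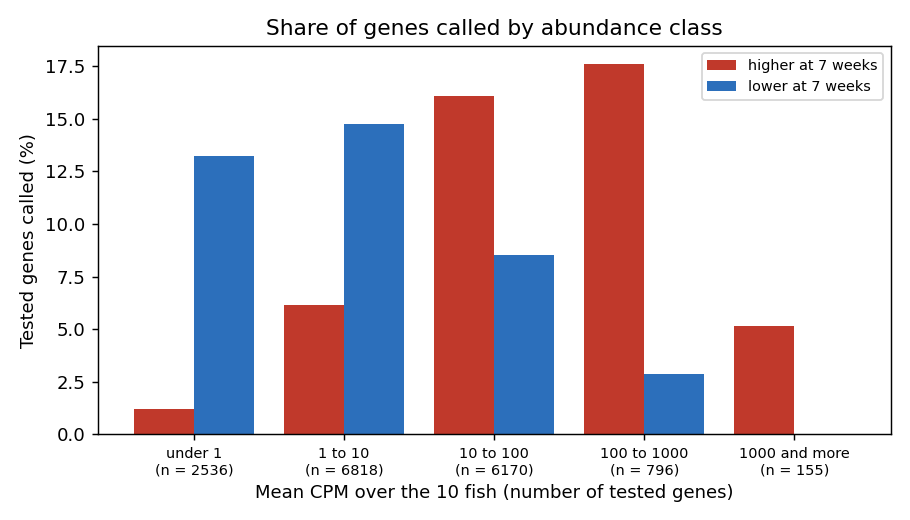
Percentage of tested genes called higher (red) and lower (blue) at 7 weeks in 5 classes of mean CPM, with the number of tested genes under each class. Rises go from 1.22% of genes below 1 CPM to 17.6% between 100 and 1000 CPM, and falls go from 14.8% between 1 and 10 CPM to 0% at 1000 CPM or more.

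In terms of transcripts, 16.0% of the counted reads moved from some genes to others between the mean profile of 5 weeks and that of 7 weeks. Any 2 groups of fish differ by more than 0 on this measure, also at the same age, so the whole 16.0% is not read as change with age. Reads are not corrected for gene length, so this is a share of reads and not of molecules. An exact two-sided permutation test over all ways to assign the 10 fish to 2 groups of 5 gave p = 0.0159, where 0.00794 is the smallest p the design allows. The share was 16.8% without 5-week fish 1 and 2 (exact permutation p = 0.0179) and 17.1% without the 20 most abundant genes (exact permutation p = 0.00794). It did not pass without 7-week fish 4, at 15.8% (exact permutation p = 0.0714), or with the deposited RPKM taken as shares, at 14.8% (exact permutation p = 0.0635). As said above, those RPKM were not divided by each library's own total.

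Gains and losses of reads were made up differently. The genes called as rises took 4.68% ± 1.09 of the counts at 5 weeks and 11.3% ± 0.899 at 7 weeks (SD, n = 5), and the genes called as falls went from 3.11% ± 0.330 to 1.48% ± 0.124 (SD, n = 5). These genes were chosen for this contrast, so the shares are a description. Called genes made up 41.2% of the gained reads but only 10.2% of the lost reads. The strongest 71 gainers made up 50% of the gain, and 33 of them were called as rises. Of all tested genes, 9.66% were called as rises and 11.5% as falls. The gainers were picked by their gain in these fish, so nothing is read from the 33. The strongest 30 losers made up 50% of the loss, and edgeR called none of them as a fall (0 genes), with 2 lower at an unadjusted p under 0.05, 2 called by DESeq2 and 0 by limma-voom. Every one of these 30 genes had a mean of at least 578 CPM.

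The 30 strongest losers were uneven from fish to fish. Together they held 24.2%, 29.6%, 17.9%, 17.0% and 13.0% of the counts in 5-week fish 1 to 5. In 7-week fish 1 to 5 they held 13.7%, 13.7%, 9.54%, 13.3% and 11.4%. The 5-week level was highest in fish 1 and 2, and 5-week fish 5 lay inside the range of the 7-week fish. None of the 30 genes had 5-week fish all above the 7-week fish (0 genes), beside 4.39% of all tested genes, so nothing particular to these 30 is read from it. Their median SE was 0.74 on the log2 scale, and log2 CPM varied among fish with a median SD of 1.26 (5 weeks) and 1.06 (7 weeks). The 71 strongest gainers held 17.9%, 16.5%, 21.8%, 22.2% and 26.5% of the counts in 5-week fish 1 to 5 and 28.1%, 28.5%, 31.1%, 29.7% and 27.6% in 7-week fish 1 to 5. Their 7-week values all lay above the 5-week values, as far as genes picked for their gain can show. Genes at 1000 CPM or more made up 59.6% of all lost reads and 40.7% of all gained reads.

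Livers at 7 weeks were a little less dominated by their top genes. The 20 most abundant genes of each library took 32.2%, 36.2%, 32.3%, 33.5% and 31.2% of the counts in 5-week fish 1 to 5. They took 29.4%, 30.1%, 31.0%, 29.9% and 27.7% in 7-week fish 1 to 5. Every 5-week fish lay above every 7-week fish, and the means were 33.1% ± 1.9 and 29.6% ± 1.2 (SD, n = 5; exact two-sided permutation p = 0.00794, the smallest possible, adjusted p = 0.0238 over 3 such measures). This measure passed whichever of the 10 fish was left out, and without 5-week fish 1 and 2 together. The effective number of genes, the exponential of the Shannon entropy of the count shares, was 790 ± 120 at 5 weeks and 906 ± 40.4 at 7 weeks (SD, n = 5; exact permutation p = 0.0873, adjusted p = 0.0873). It did not pass with all fish and did without 5-week fish 1, whose value of 983 was the highest of the 10 (adjusted p = 0.0119, exact permutation test), and without 5-week fish 1 and 2 together, at a difference of 187 (adjusted p = 0.0268, exact permutation test).

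Fewer genes were seen at 7 weeks than in some of the 5-week livers. At least 1 CPM was reached by 14507, 14116, 12958, 13944 and 13677 genes in 5-week fish 1 to 5. In 7-week fish 1 to 5 it was reached by 13076, 12884, 13693, 13097 and 12857 genes. The groups overlapped, since 5-week fish 3 lay with the 7-week fish and 7-week fish 3 with the 5-week fish, and the difference of -719 genes did not pass (exact permutation p = 0.0556, adjusted p = 0.0833). It passed without 5-week fish 3, at -940 genes (adjusted p = 0.0357, exact permutation test), and without 7-week fish 3, at -862 genes (adjusted p = 0.0476, exact permutation test). Without 5-week fish 1 and 2 together it shrank to -405 genes (adjusted p = 0.286, exact permutation test). Fish 1 and 4 had the lowest total counts of the 5-week fish, while fish 2, with more genes than fish 4, had 30671390 counts, the second highest.

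The genes common to all fish of an age were as many at 7 as at 5 weeks, and what differed was the number seen in some fish only. Of the 26739 genes in the table, 12082 were at or above 1 CPM in all 5 fish at 5 weeks and 12101 at 7 weeks. In at least 1 fish, 15957 genes reached this level at 5 weeks and 14408 at 7 weeks. The later ages had numbers near that of 7 weeks, with 14466 genes in at least 1 fish at 10 weeks and 14644 at 14 weeks. With any 1 fish left out, between 15344 and 15894 genes were found in 5-week livers and between 13769 and 14339 in 7-week livers. The same counts for the later ages lay between 14177 and 14393 (10 weeks) and between 14422 and 14587 (14 weeks). The 5-week fish were unequal, with 15344, 15755, 15894, 15601 and 15842 genes when fish 1 to 5 were left out in turn. Each of these counts was above every such count at the other ages. Whether several 5-week fish together made up the excess was not tested. These numbers are a description without a test.

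Hardly any gene was switched off or on in all fish. A gene was called near-silent at an age when every fish lay under 0.5 CPM and expressed when every fish was at or above 1 CPM. For comparison, 3 reads corresponded to 0.0830 to 0.138 CPM in these 10 libraries. No gene went from near-silent at 5 weeks to expressed at 7 weeks (0 genes), and 2 went the other way, both called by edgeR. Single fish moved these small counts: 2 and 3 genes went from near-silent to expressed without 5-week fish 5 and without 7-week fish 2, and 5, 4 and 4 went the other way without 7-week fish 1, 3 and 4. Without 5-week fish 1 and 2 the counts were 3 and 5. With limits of 0.25 and 2 CPM no gene went either way (0 genes). If 1 fish of each age was allowed to differ, 7 genes were near-silent at 5 weeks and expressed at 7 weeks, and 34 were expressed at 5 weeks and near-silent at 7 weeks. Of these, 6 and 30 were called, beside 21.1% of all tested genes. All these genes were chosen by levels at the same ages, so nothing is read from the numbers called. Of the 34 genes, 15 had a mean of at least 1 CPM again at 10 weeks and 22 at 14 weeks, while 9 and 6 had a mean under 0.5 CPM. Of the 7 genes, 3 had a mean of at least 1 CPM at 10 weeks and 1 at 14 weeks.

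By the means of the ages alone, a rule added after the data had been seen, the contrast was wider and depended on few fish. The mean was at least 1 CPM at 5 weeks and under 0.5 CPM at 7 weeks for 525 genes, of which 243 were called. The mean was under 0.5 CPM at 5 weeks and at least 1 CPM at 7 weeks for 46 genes, of which 20 were called. Of all tested genes, 21.1% were called. The 525 and 46 genes were chosen by levels at the same ages, so nothing is read from the numbers called. Of the 525 genes, 139 reached 1 CPM in 1 of the 5-week fish, 223 in 2, 119 in 3, 27 in 4 and 17 in all 5. The highest of the 5-week fish was fish 1 for 213 of them, fish 4 for 117, fish 2 for 101, fish 5 for 69 and fish 3 for 25. At later ages 48 of the 525 genes had a mean of at least 1 CPM at 10 weeks and 124 at 14 weeks, and 368 and 279 had a mean under 0.5 CPM.

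Single 5-week fish had sets of genes that were near-silent, though not necessarily without reads, in all 7-week fish. At 5 weeks, 485 genes in fish 1, 203 in fish 2, 36 in fish 3, 352 in fish 4 and 105 in fish 5 were at or above 1 CPM in that fish and under 0.5 CPM in all 5 fish of 7 weeks. At 7 weeks the mirrored counts were 11, 10, 41, 14 and 16 genes in fish 1 to 5. Fish 1 and fish 3 were the extremes at 5 weeks, and the lowest 5-week count lay below the highest 7-week count. Over all fish, 924 genes met this in at least one 5-week fish and 66 in at least one 7-week fish. Of the 924 genes, 714 met it in 1 fish, 170 in 2, 35 in 3, 3 in 4 and 2 in all 5. Of the 924, 429 had enough reads to be tested and 211 were called, which is 22.8% of the 924 and 49.2% of those tested, beside 21.1% of all tested genes. The genes were chosen by levels at the same ages, so nothing is read from this share.

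The sets of different 5-week fish were largely not the same genes. Fish 1 and 2 shared 85 genes, which is 17.5% of the set of fish 1 and 41.9% of that of fish 2. Fish 1 and 4 shared 53 genes, 10.9% and 15.1% of their sets. Fish 4 and 5 shared 64 genes, 18.2% of the set of fish 4 and 61.0% of that of fish 5. In fish 1, 356 of its 485 genes were under 1 CPM in all other 5-week fish, and so were 221 of the 352 genes in fish 4. In fish 2, 3 and 5 this held for 93 of 203, 13 of 36 and 31 of 105 genes. The genes were weakly expressed, with a median of 1.81 CPM in fish 1 and 1.47 CPM in fish 4, but 40 genes reached at least 10 CPM in fish 1, the highest 203 CPM, against 2 genes in fish 4. Together they took 0.320% of the counts of fish 1 and 0.0584% of those of fish 4. Of the 485 genes of fish 1, 103 reached 1 CPM in at least 1 of the 10 fish of 10 and 14 weeks, and 4 did so in 5 or more of them. Of the 352 genes of fish 4, these numbers were 55 and 8.

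**Figure D4:**
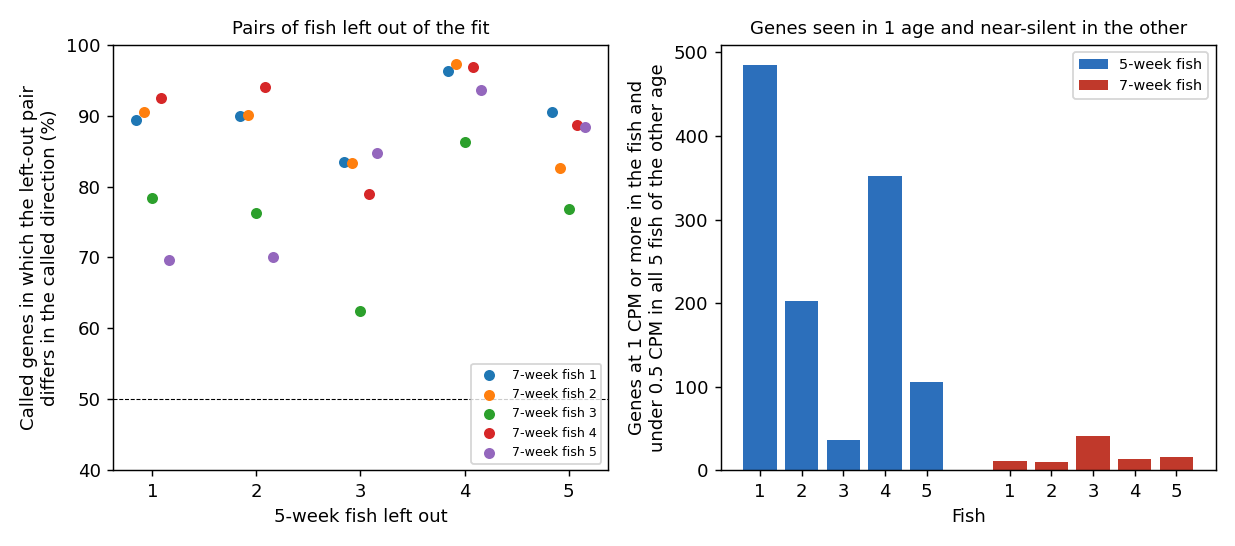
Left, for each 5-week fish left out together with each 7-week fish (colour), the percentage of genes called on the other 18 libraries in which the left-out pair differs in the called direction, with a dashed line at 50%. Right, the number of genes at or above 1 CPM in a fish and under 0.5 CPM in all 5 fish of the other age. Fish 4 has the highest values at left, 86.3% to 97.2%, and fish 1 and 4 have the tallest bars at right, 485 and 352.

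Each 5-week fish carried the change, but not to the same extent. To judge a fish on genes it had not helped to choose, each of the 25 pairs of a 5-week and a 7-week fish was left out, genes were called on the other 18 libraries, and the left-out pair was read in those genes. In all 25 pairs more than 50% of the called genes differed in the called direction, with a median of 88.4% (range 62.4% to 97.2%). Among all tested genes, called or not, the 7-week fish was the higher of the pair in 47.0% to 53.5% of genes. For 5-week fish 4 the share was 86.3% to 97.2% (median 96.3%), for fish 1 69.6% to 92.5% (median 89.4%), for fish 2 70.1% to 94.0% (median 89.98%), for fish 5 76.8% to 90.5% (median 88.4%) and for fish 3 62.4% to 84.7% (median 83.3%). The size of the difference set fish 4 apart more clearly. Its median log2 difference in the called direction was 1.58, beside 0.66, 0.62, 0.76 and 0.81 for fish 1, 2, 3 and 5. Fewer genes were called when fish 4 was left out, 1014 to 2294 against 1908 to 3691 for the other 5-week fish, so its values rest on another set of genes.

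Rises were carried more evenly than falls, but the called falls were also less abundant (median 3.95 CPM, against 20.2 CPM for rises). Genes at low levels were measured less exactly, and rises and falls were not compared at equal abundance. In the left-out pairs the median share of rises in the called direction was 91.3% to 98.0% for the 5 fish of 5 weeks, and the median share of falls was 73.1% to 93.5%, lowest for fish 3 and highest for fish 4. In every left-out pair but that of 5-week fish 5 and 7-week fish 2 the share was higher for rises. That pair had 79.4% of rises and 85.6% of falls in the called direction. The lowest value of all was that of 5-week fish 3 against 7-week fish 3, in which 86.2% of the rises and 47.2% of the falls had the called direction. Among the 7-week fish, fish 3 had the lowest median share, 76.8%, and the other 7-week fish had 84.7% to 92.5%.

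The same unevenness was seen in the called genes themselves, as a description of genes chosen on these fish. The 5 and 5 fish did not overlap in 2053 tested genes (12.5%), of which 1330 were higher (8.07%) and 723 lower (4.39%) at 7 weeks. Of the called rises, 1090 (68.5%) had no overlap, and of the called falls 643 (34.0%). One fish supplied over 50% of the summed 5-week CPM in 260 of the 1890 falls (13.8%), most often fish 1, with 105 genes, and fish 2, with 76. This was so in 8.12% of all tested genes. One 7-week fish supplied over 50% of the summed CPM in 14 of the 1591 rises (0.880%), and in 5.80% of all tested genes. Fish 4 was the lowest 5-week fish in 971 of the 1591 rises (61.0%) and the highest in 610 of the 1890 falls (32.3%). The SD of log2 CPM was larger at 5 than at 7 weeks in 76.0% of the tested genes, with medians of 0.49 and 0.26 for called rises and 0.64 and 0.42 for called falls.

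The gene with the largest gain in mean level among called genes without overlap between the ages was Nfu_g_1_010847, whose length implied by the deposited RPKM is 2590 bp. Its CPM was 485, 460, 606, 384 and 247 in 5-week fish 1 to 5 and 4361, 4542, 2876, 2996 and 2916 in 7-week fish 1 to 5. Every 7-week fish lay several times above the highest 5-week fish, fish 3. The mean of 436 ± 133 CPM at 5 weeks became 3538 ± 837 CPM at 7 weeks (SD, n = 5). This was a rise of 3.02 on the log2 scale (SE 0.49, edgeR adjusted p = 0.000825), and the change also passed the test against 2-fold (edgeR adjusted p = 0.0196). At 10 and 14 weeks the gene stood at 89.7 ± 74.8 and 155 ± 70.8 CPM (SD, n = 5), with a highest single value of 267 CPM in 14-week fish 5, so the high level was seen at 7 weeks and not at the other ages sampled.

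The largest loss in mean level among called genes without overlap between the ages was that of Nfu_g_1_015914, with an implied length of 1215 bp. Its CPM was 254, 289, 591, 641 and 462 in 5-week fish 1 to 5 and 187, 224, 138, 158 and 176 in 7-week fish 1 to 5. The groups were close at their edges, with 5-week fish 1 near 7-week fish 2. The mean of 447 ± 174 CPM at 5 weeks became 176 ± 32.4 CPM at 7 weeks (SD, n = 5). The log2 change of -1.34 passed the test (SE 0.26, edgeR adjusted p = 0.00304), and the change did not pass the test against 2-fold (edgeR adjusted p = 0.508). The gene stood higher than at either age later on, at 1101 ± 289 CPM at 10 weeks and 910 ± 195 CPM at 14 weeks (SD, n = 5).

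Of the 2 genes that were expressed in every 5-week fish and near-silent in every 7-week fish, Nfu_g_1_011894 had the higher 5-week mean. Its CPM was 5.86, 2.27, 1.10, 1.29 and 1.32 in 5-week fish 1 to 5 and 0.210, 0.221, 0.308, 0.296 and 0.120 in 7-week fish 1 to 5. The 7-week values rest on 3 to 10 reads per fish, and 5-week fish 1 lay far above the other 5-week fish. The mean of 2.37 ± 2.003 CPM at 5 weeks became 0.231 ± 0.0760 CPM at 7 weeks (SD, n = 5). The log2 change of -3.32 passed the test (SE 0.74, edgeR adjusted p = 0.00595), and the change did not pass the test against 2-fold (edgeR adjusted p = 0.105). The log2 change lay between -3.50 and -2.64 when single libraries were left out. It was -2.38 without 5-week fish 1 and 2 and -1.79 with the deposited RPKM. At 10 weeks the level was 0.105 ± 0.0792 CPM (SD, n = 5), and at 14 weeks fish 1 and 2 were back at 2.09 and 2.14 CPM while fish 3, 4 and 5 were at 0.557, 0.171 and 0.0870 CPM.

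**Figure D5:**
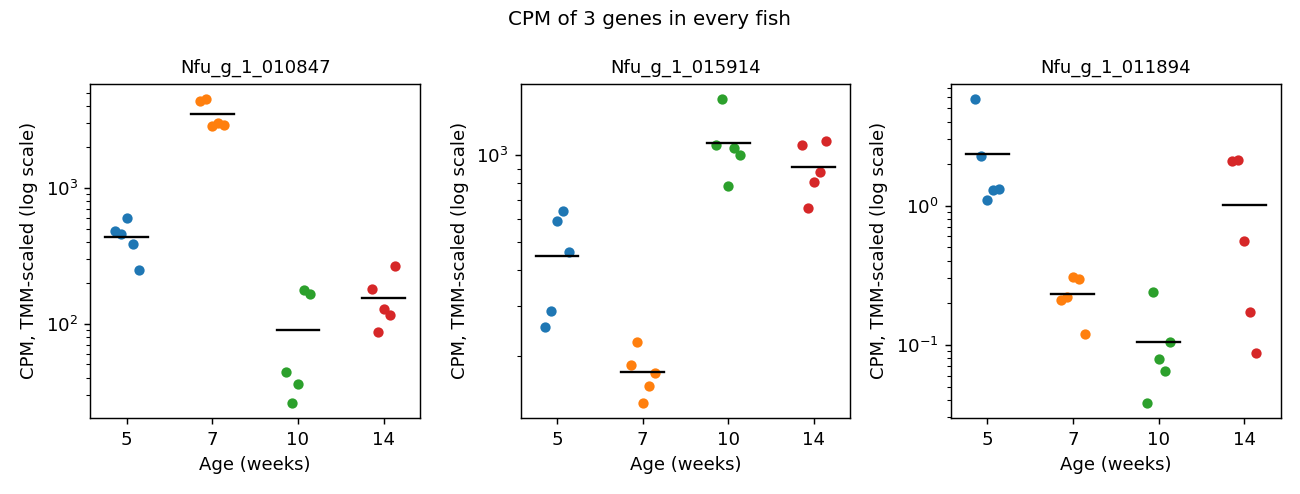
CPM (TMM-scaled, log axis) of 3 genes in each of the 20 fish by age, with a line at the mean of the 5 fish. Nfu_g_1_010847 is high in all 7-week fish, at 2876 to 4542 CPM, Nfu_g_1_015914 is lowest at 7 weeks, at 138 to 224 CPM, and Nfu_g_1_011894 is under 0.5 CPM in all 7-week fish.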

How the data were processed

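Liver RNA-seq of 20 fish was used, and the comparison was that of 7 with 5 weeks (n = 5 each). The authors deposited raw counts of reads for each gene, in whole numbers, and a table of RPKM. Per the submitters' processing notes, featureCounts 1.4.6-p4, STAR 2.4.1d and CASAVA 1.8.2 were used. The genome build was not given in the sources used here, nor was the annotation. None of the identifiers matched the 38438 genes of the RefSeq table (0 matches). The deposited RPKM divided counts by library totals that ran through a cycle of 25 numbers and not by each library's own total (residual SD 9.92e-05 on the log2 scale). They were used only for an alternative (limma on log2 of RPKM plus 0.1) and for gene lengths.

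The main analysis of the counts used edgeR 4.0.16 under R 4.3.3 (filterByExpr, TMM, 1 mean per age over all 20 libraries, quasi-likelihood F-tests, Benjamini-Hochberg over 16475 genes). An SE is the fitted log2 change over the root of its F statistic. Alternatives used DESeq2 1.42.0 and limma 3.58.1. Permutation tests were exact, in Python 3.11.15, two-sided. Fish are numbered by sample order, and numbers do not link ages. All 20 same-age pairs of fish differed by more than sampling noise (chi-square per degree of freedom at least 64.8). The fit was also run on simulated counts in which 50 genes were changed per fold size, far fewer in all than were called here. It recovered 2% of 1.5-fold, 6% of 2-fold, 68% of 4-fold and 88% of 8-fold changes, with 1 false call. These values hold for the simulated counts only. False calls under the unequal spread of the ages were not tested, nor was recovery with as many changed genes as were called here.

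Genes were named by rule: per direction, the called gene without overlap whose mean CPM changed most, and the most abundant called gene near-silent at one age and expressed at the other. No rise met the latter. The groups, measures and rules were chosen with earlier results of these data known. Lists of cell type genes could not be applied, since the identifiers have no names. Reads shared between near-identical gene copies, or between overlapping or antisense genes in these libraries without strand, could not be separated.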

Additional observations from a re-analysis of the deposited data

Results flagged for a closer look

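In 4 of 28 groups of 5 fish checked, 1 fish lay far from the other 4. The rule was Dixon's ratio for 5 values with a cut-off of 0.71, which independent, normally distributed values pass in about 1 of 20 groups. The 28 groups reuse the same fish on related measures, so the 4 are not weighed against this rate. Among 7-week fish, fish 3 had 13693 genes at or above 1 CPM, and the others had 12857 to 13097. The same fish had 41 genes at or above 1 CPM that were under 0.5 CPM in all 5-week fish, and the others had 10 to 16. Among 5-week fish, fish 4 had 6173 tested genes at least 2-fold from the 7-week mean, 3036 higher and 3137 lower, and the others had 3648 to 4367. Nfu_g_1_011894 was at 5.86 CPM in 5-week fish 1, and at most at 2.27 CPM in the other 5-week fish.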

How the results depend on the processing

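Against the fit of all 20 libraries (3481 genes, 1591 higher, 1890 lower, 63 past the 2-fold test), leaving out 1 library gave 2157 to 4230 genes, 947 to 2009 higher, 1077 to 2221 lower and 34 to 118 past the 2-fold test. The 10 libraries of 5 and 7 weeks gave 1996 genes, 897 of them lower, and 21 past the 2-fold test. The deposited RPKM gave 683 genes, 443 higher and 240 lower, and 19 past the 2-fold test. limma-voom gave 1253 lower and 14 past the 2-fold test, no scaling gave 991 higher, and leaving out 5-week fish 1 and 2 gave 422 past the 2-fold test. RLE scaling, both other filters, DESeq2 and the robust fit kept these counts within 1.5 times. The causes were not tested.

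The share of rises among calls under 10 CPM, a measure added after seeing the data, was 18.9% with no scaling, 28.003% in DESeq2, 39.0% in limma-voom, 38.5% with the deposited RPKM, 32.3% with 10 libraries, 36.8% without 5-week fish 1 and 2, and 20.3% to 31.4% with 1 library left out. At or above 10 CPM it was 58.4% with no scaling, 72.9% with no filter, 62.7% with a filter of 1 CPM in 5 libraries, 74.5% in limma-voom, 86.6% with the deposited RPKM, 72.8% with 10 libraries, 61.2% without 5-week fish 1 and 2, and 67.0% to 77.5% with 1 library left out.

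The share of reads moved was 15.1% to 18.2% with 1 fish left out and 14.8% with the deposited RPKM, which missed the threshold. From near-silent to expressed, 0 to 3 genes were found with 1 fish left out, 7 with 4 of 5 fish and 3 without 5-week fish 1 and 2. In the opposite direction these were 2 to 5, 34 and 5 genes, and 0 with limits of 0.25 and 2 CPM. The difference in genes at or above 1 CPM was -940 to -552 with 1 fish left out and -405 without 5-week fish 1 and 2, that in the share of the 20 most abundant genes was -3.91 to -2.67 percentage points, and that in the effective number of genes was 88.1 to 165, and 187 without 5-week fish 1 and 2 (adjusted p = 0.0268, exact permutation test). The 3 named genes were called in the same direction in all 30 alternatives. No paired analysis was possible, since each liver came from a different fish and nothing in the labels links fish across ages. Depth limits the genes under 1 CPM, where 1 fish has few reads.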
